A study of Mus musculus with 20 samples.

Results

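Smtn, Actg2, Mypn, Cnn3 and Pdlim4 encode proteins of the contractile or actin-bound cytoskeleton, and Popdc2 encodes a membrane protein. All 6 genes are grouped here as best known from muscle. They were measured here in CD4 T cells sorted from mice. The 6 genes were chosen by their measured intensity over all 12 groups and 20 arrays: Pdlim4 and Cnn3 separated naive from follicular cells, Smtn separated TFH from TFR, Actg2 was highest in TFR, and Popdc2 and Mypn differed between lymph node and Peyer's patch. Their levels are therefore given as a description, without p-values. They carry 9 of the 39429 gene probes on the array. Of these 9 probes, 8 were among the 22264 probes bright enough to be tested. The remaining probe, the third for Cnn3, was not well above background on any array.

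T follicular helper cells (TFH) help B cells in germinal centres, and T follicular regulatory cells (TFR) are Foxp3+ cells that enter the follicle. All cells came from the Foxp3 EGFP reporter strain B6.Cg-Foxp3tm1Mal, so GFP marks Foxp3-expressing cells in every group, and all were gated as CD4+ cells without B220, a gate that leaves out B cells. Peripheral lymph nodes (pLN) were taken on day 12 (d12) or day 25 (d25) after subcutaneous KLH in alum. The pLN groups were naive (GFP-, PD1lo, GL7-), Treg (GFP+, PD1lo, GL7-), TFH (GFP-, PD1hi, GL7+) and TFR (GFP+, PD1hi). Peyer's patches (PP) gave Treg, TFR and TFH of the GL7+ and the GL7- fraction but no naive cells, and the labels name no immunisation for them. Each sample was a pool of 8 to 15 mice of mixed sex, aged 8 to 14 weeks. The 8 groups of pLN d12 and PP had 2 arrays each, and the 4 groups of pLN d25 had 1 array each, so d25 values have no replicate.

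The 20 arrays lay on 5 slides of 4 arrays, and each slide held samples of 1 tissue and 1 day. Slides 1 and 2 held pLN d12, slide 3 held pLN d25, and slides 4 and 5 held PP, so tissue and slide cannot be told apart. Between 43.0% and 58.0% of gene probes were well above background on an array, and log2 intensities of replicate arrays correlated at r = 0.955 to 0.986 across probes. Foxp3, which defines regulatory T cells, read 13409 to 35129 on the 10 arrays of GFP+ cells and 27 to 192 on the 10 arrays of GFP- cells. Pdcd1, which encodes PD1, read 27456 to 174442 in the 12 PD1hi samples and 1297 to 6517 in the 8 PD1lo samples. No array went against its sort label on these genes. Intensities below are normalised, with the 75th percentile of each array at 1500 and a floor of 20.

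Actin filaments give cells their shape and drive their movement, and muscle cells order them with myosin into a contractile apparatus. Smooth muscle uses Acta2 and Actg2 as its actins and carries smoothelin and calponins on its filaments. Striated muscle anchors its filaments at the Z-disc, where alpha-actinin, palladin-family and PDZ-LIM proteins meet. Lymphocytes build their actin cortex mainly from the nonmuscle actins Actb and Actg1.

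The probes are 60-base oligonucleotides, and each value below is what 1 such sequence bound. A stretch of 30 bases is shown for the probes on which the members' levels rest, as written in the scanner files, with the 20-base window richest in A in capitals.
Smtn (chr11:3417530-3417589, minus strand, mm9): tgtacACACGCAGCGTTTTGATAAAttatt
Actg2 (chr6:83462904-83462963, minus strand, mm9): ctgtcACCAGCCACAGATCATTAAAacctt
Popdc2 (chr16:38378016-38378075, plus strand, mm9): gttgcAGGACATTGCCAGGTTTACAcggcc
Cnn3 (chr3:121161024-121161083, plus strand, mm9): gcgtttCTCAGCATAAACTTATCCCAttgt
Pdlim4 (chr11:53868434-53868493, minus strand, mm9): CATGGCCAGTGTAAATATATgtcctcctgg
Mypn (chr10:62578991-62579050, minus strand, mm9): gatttAAAGAGAAAACAAAAAACAAaacgg
The capitals hold 16 A of 20 in the Mypn probe. In the other 5 probes shown they hold 6 to 9.

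Smtn encodes smoothelin, an actin-associated protein of contractile smooth muscle. In pLN d12 TFH its intensity was 30559 and 24119, and the d25 TFH array read 32621. In PP, the GL7+ TFH arrays read 26218 and 17366 and the GL7- TFH arrays 22106 and 15983. All 7 TFH arrays were thus at 15983 or more, whatever the tissue, day or GL7 fraction.

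TFR arrays held an intermediate Smtn level. They read 3221 and 1774 in pLN d12, 1281 in d25, and 1132 and 924 in PP. Naive cells read 263, 488 and, on d25, 277. Treg read 407, 266 and, on d25, 203 in pLN, and 323 and 182 in PP. The 3 levels did not overlap: the lowest TFR array was above the highest naive or Treg array, and the highest TFR array was below every TFH array.

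Smtn in pLN d12 TFH (27339 ± 4550, mean ± SD, n = 2) was 75.7-fold above naive, a log2 difference of 6.24 (SE 0.43). The SE here and below is limma's, from a fit of all groups. TFR exceeded Treg by 2.86 (log2, SE 0.43) in pLN d12 and by 2.08 in PP, and its difference from TFH was -3.51 and -4.38. Treg and naive cells differed by only -0.12 on the log2 scale, less than the residual SD of 0.46. In the order of group means the TFH groups of both tissues and both GL7 fractions were neighbours within that spread, and so were naive and Treg.

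Another Smtn probe (chr11:3420834-3420893, minus strand, mm9) gave the same 3 levels, TFH above TFR above the rest. It read 7530 to 7941 in pLN d12 TFH and 7414 to 11291 in PP TFH of both fractions. TFR gave 552 and 985 in pLN d12 and 402 and 487 in PP. Naive cells and Treg stayed at 20 to 137, and this probe was well above background on 15 of 20 arrays.

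Actg2 encodes the gamma actin of enteric smooth muscle. TFR carried its highest levels, at 16024 and 14160 in pLN d12, 9186 on d25, and 7568 and 8928 in PP. TFH read 2415 and 2778 in pLN d12, 4216 on d25, 1026 and 1131 in the PP GL7+ fraction, and 1091 and 1092 in the GL7- fraction. Every TFR array was above every TFH array, the reverse of Smtn.

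Treg also carried Actg2, at 2458 and 1126 in pLN d12, 874 on d25, and 732 and 522 in PP. Naive cells read 57, 37 and, on d25, 46, not well above background on any of the 3 arrays. Because naive cells had no measured level, only a bound can be given: Actg2 was at least 35.7-fold higher in pLN d12 TFH and at least 23.0-fold higher in Treg than in naive cells. This bound sets the bright group's mean against, on each naive array, the lowest signal measured above background or the probe's own value, whichever was higher. With normexp background correction the fitted log2 differences were smaller, 4.26 against 5.81 for TFH and 3.65 against 5.17 for Treg, below these bounds.

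Against Treg, Actg2 in TFR was higher by 3.18 (log2, SE 0.34) in pLN d12 and by 3.73 in PP. Against TFH it was higher by 2.54 and 2.93. Group means were 15092 ± 1320 for pLN d12 TFR, 8248 ± 961 for PP TFR, 2597 ± 257 for pLN d12 TFH and 1792 ± 942 for pLN d12 Treg (SD, n = 2 each). In pLN d12 the TFH and Treg arrays overlapped, and on slide 1 they read nearly alike. In the order of group means, both PP TFH fractions were neighbours within the residual SD of 0.36 (log2).

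Popdc2 encodes a membrane protein with a Popeye domain, which binds cAMP, and is best known from heart and skeletal muscle. It was high in TFH of the lymph node: 9376 and 8810 on d12 and 10010 on d25. PP TFH read 372 and 303 in the GL7+ fraction and 386 and 299 in the GL7- fraction. No PP TFH array came near a pLN TFH array.

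TFR of pLN d12 read 1096 and 877 for Popdc2, with 461 on d25, and PP TFR read 92 and 115. Treg read 511 and 331 in pLN d12, 154 on d25, and 64 and 57 in PP. Naive cells were low, at 51 and 159 on d12 and 94 on d25. The probe was well above background on 1 of the 2 naive d12 arrays and on neither the naive nor the Treg array of d25. Within each slide the order was thus TFH above TFR above Treg, and the neighbouring groups PP TFH GL7+ and GL7- did not differ beyond the residual SD of 0.47 (log2).

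In pLN d12 TFH the Popdc2 mean was 9093 ± 400 (SD, n = 2), 101-fold above naive cells (log2 6.66, SE 0.44). Without naive replicate 1 the log2 difference was 5.84, and without naive replicate 2 it was 7.47. PP GL7+ TFH lay 27.0-fold below pLN d12 TFH (log2 -4.76), and the PP difference was -3.26 in TFR and -2.76 in Treg. The log2 difference of TFR from TFH was -3.21 in pLN d12 and -1.71 in PP. Smtn, by contrast, differed between PP and pLN d12 by only -0.35 (log2, SE 0.43) in TFH and -0.44 in Treg, and by -1.225 in TFR. On average over Treg, TFH and TFR the difference was -0.67 (SE 0.25) for Smtn and -3.59 (SE 0.25) for Popdc2.

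Pdlim4 encodes a PDZ-LIM protein, also called RIL, that binds alpha-actinin. Naive cells read 21891, 22047 and, on d25, 21198. TFH read 476 and 327 in pLN d12 and 421 on d25. Treg read 520, 471 and, on d25, 462. The naive arrays stood alone, far above every other array, and pLN d12 Treg and the d25 Treg and TFH arrays were neighbours within the residual SD of 0.33 (log2).

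TFR gave the values 331 and 179 for Pdlim4 in pLN d12 and 255 on d25. All 8 PP arrays lay between 100 and 187. Relative to naive cells (21969 ± 111, SD, n = 2), Pdlim4 was 55.6-fold lower in pLN d12 TFH (log2 -5.80, SE 0.32) and lower in Treg (log2 -5.47). The difference of PP from pLN d12 was -1.33 (log2, SE 0.18) on average over Treg, TFH and TFR.

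Cnn3 encodes acidic calponin, an actin-binding calponin that also occurs outside muscle. It was high in naive cells (5713, 4892 and, on d25, 5753) and in Treg (3187, 3491 and, on d25, 3869 in pLN; 3081 and 2892 in PP). TFH read 566 and 537 in pLN d12, 604 on d25, 588 and 302 in PP GL7+, and 578 and 471 in PP GL7-. PD1lo cells were thus above TFH on every array, in both tissues. Naive and Treg groups were neighbours within the residual SD of 0.71 (log2), and so were all TFH and TFR groups, with a gap of 2.16 between these sets.

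Cnn3 in TFR was low in pLN (283, 325 and, on d25, 442) but split in PP, at 1645 and 268. Another Cnn3 probe (chr3:121160748-121160807, plus strand, mm9) gave the same split, 1716 and 274. The log2 difference of TFR from Treg was -3.46 (SE 0.64) in pLN d12 and -2.17 in PP. Without the higher PP TFR array, the PP difference was -3.47. Within slides the difference of TFR from Treg was -3.49, -3.42, -3.13, -0.91 and -3.43 on slides 1 to 5.

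The PP TFR array with the high Cnn3 value also had the highest summed level of 10 B-cell markers of all 20 arrays, 171341, against 13218 on the other PP TFR array. On slide 4 as a whole these sums ran from 24697 to 171341, against 6449 to 14790 on slide 5 and 4536 to 25547 in pLN. The PP Treg array of slide 4 had a sum of 114072. Their part in the Cnn3 value was not tested.

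**Figure D1:**
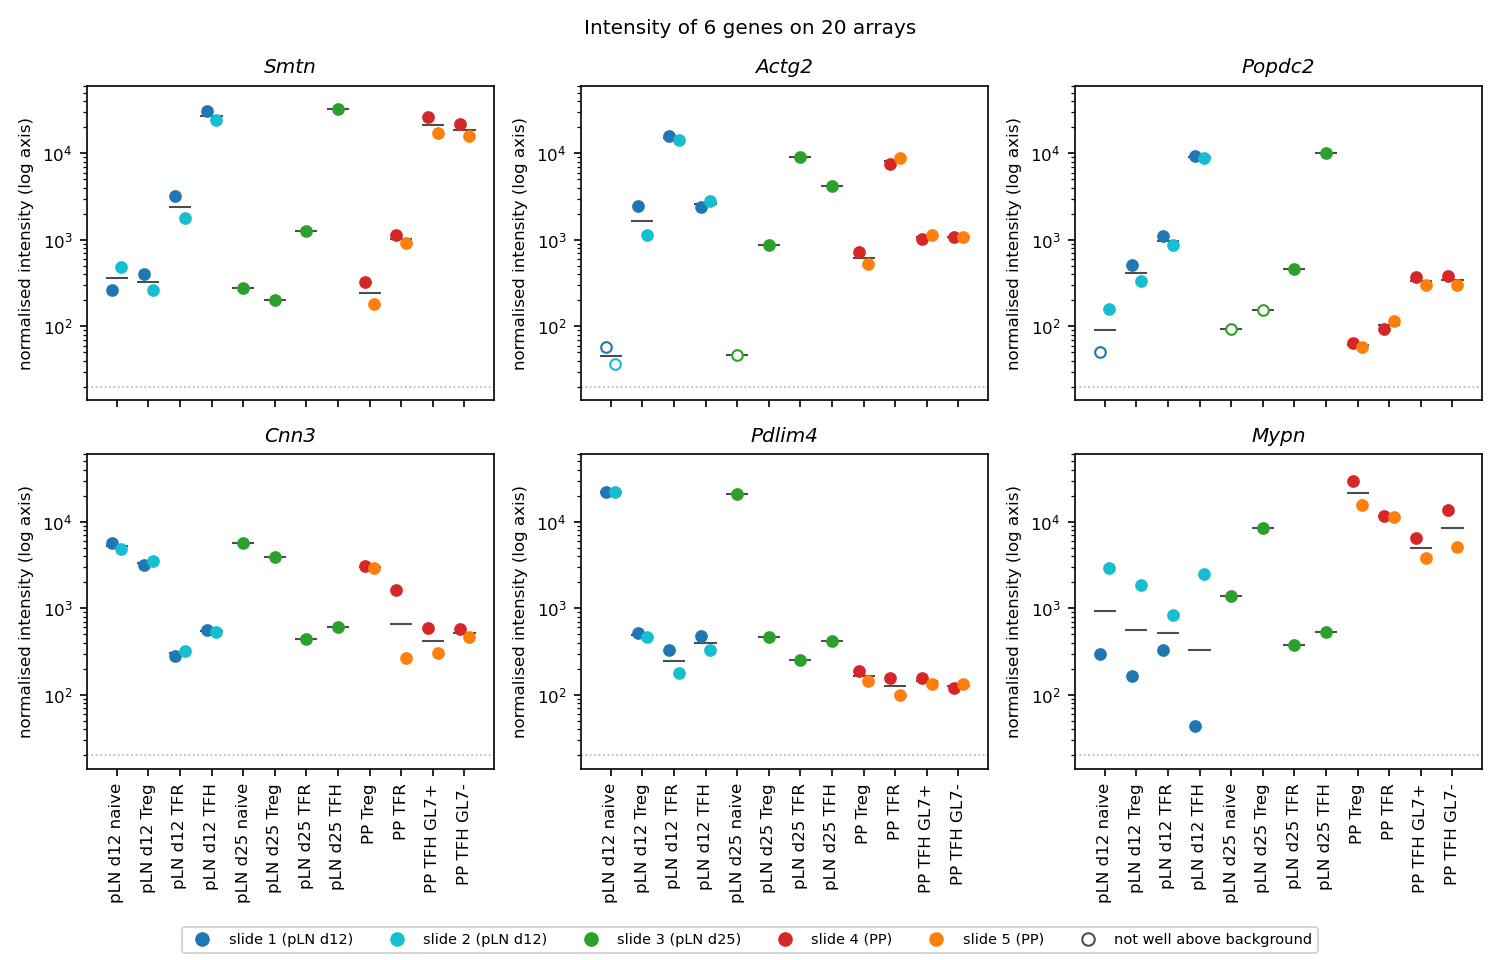
Normalised intensity (log axis) of the 6 genes in the 12 groups, 1 point per array; bars are geometric group means, hollow points are values not well above background, and the dotted line is the floor of 20. Smtn is high in all 7 TFH arrays, Actg2 in all 5 TFR arrays, Popdc2 in the 3 pLN TFH arrays and Pdlim4 in the 3 naive arrays. For Mypn the 2 arrays lie far apart in naive, Treg and TFH of pLN d12 but close together in PP TFR.

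Mypn encodes myopalladin, a sarcomere protein related to palladin. Its probe behaved unlike the other members. Naive cells read 297 and 2935 on d12 and 1399 on d25. TFH read 44 and 2494 in pLN d12 and 531 on d25. The pLN d12 TFH replicates thus lay further apart than the means of PP and pLN d12 TFH, and the residual SD was 1.97 on the log2 scale.

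Treg read 167 and 1879 for Mypn in pLN d12 and 8471 on d25, and TFR read 327 and 826, with 375 on d25. In PP the probe read 6415 and 3770 in TFH GL7+, 13837 and 5128 in TFH GL7-, 29444 and 15628 in Treg, and 11679 and 11426 in TFR. PP exceeded pLN d12 by 4.54 (log2, SE 1.02) on average over Treg, TFH and TFR, by 3.57 without pLN d12 TFH replicate 1 and by 5.51 without replicate 2. The difference of TFR from TFH took both signs within slides, at 2.90, -1.59, -0.50, 0.86 and 1.60 on slides 1 to 5.

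Mypn intensity ran with that of probes for unrelated genes. Over the 20 arrays, 50 other tested probes followed the Mypn probe at r of 0.97 or more in log2 intensity, a description over arrays that share slides. That of Gm11735 is shown because of what its sequence has in common with that of Mypn, with capitals as above.
Gm11735 (chr11:116600001-116600060, minus strand, mm9): gggagAAAAACAAAACAAAAATGAAacaaa
The window of Gm11735 holds 16 A of 20, as does that of Mypn. Across the arrays Gm11735 ran from 25 to 14285.

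The A-rich window was noticed after the values were seen. Of the 50 following probes, 30 (60%) had a 20-base window with at least 16 A, against 50 of the other 22214 tested probes (0.225%). The letters AAAACAAA occurred in 33 of the 50 (66%) and in 195 of the others (0.878%). The other members had 6 to 9 A in their tested probes' windows, and their correlations with Mypn over arrays ran from -0.557 to 0.169.

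The share of probes called higher in PP than in pLN d12, on average over Treg, TFH and TFR, rose with the number of A in the window, against 5.26% called higher and 4.08% called lower over all tested probes. It was 3.81% at 0 to 7 A (6501 probes), 8.85% at 12 to 13 A (1752 probes), 31.7% at 14 to 15 A (413 probes) and 75.9% at 16 or more (79 probes, Mypn left out). In that last class no probe was called lower, and the median log2 difference was 3.30, against -0.00502 at 0 to 7 A. The median intensity of the 50 followers was 29 to 109 on the arrays of slide 1, 172 to 694 on slide 2, 89 to 2007 on slide 3, 1280 to 6573 on slide 4 and 903 to 3465 on slide 5. Slides 1 and 4 carried samples started from 50 ng of RNA, and the other slides samples started from 40 ng. Tissue and slide cannot be told apart, and the part of probe sequence in the Mypn level was not tested.

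**Figure D2:**
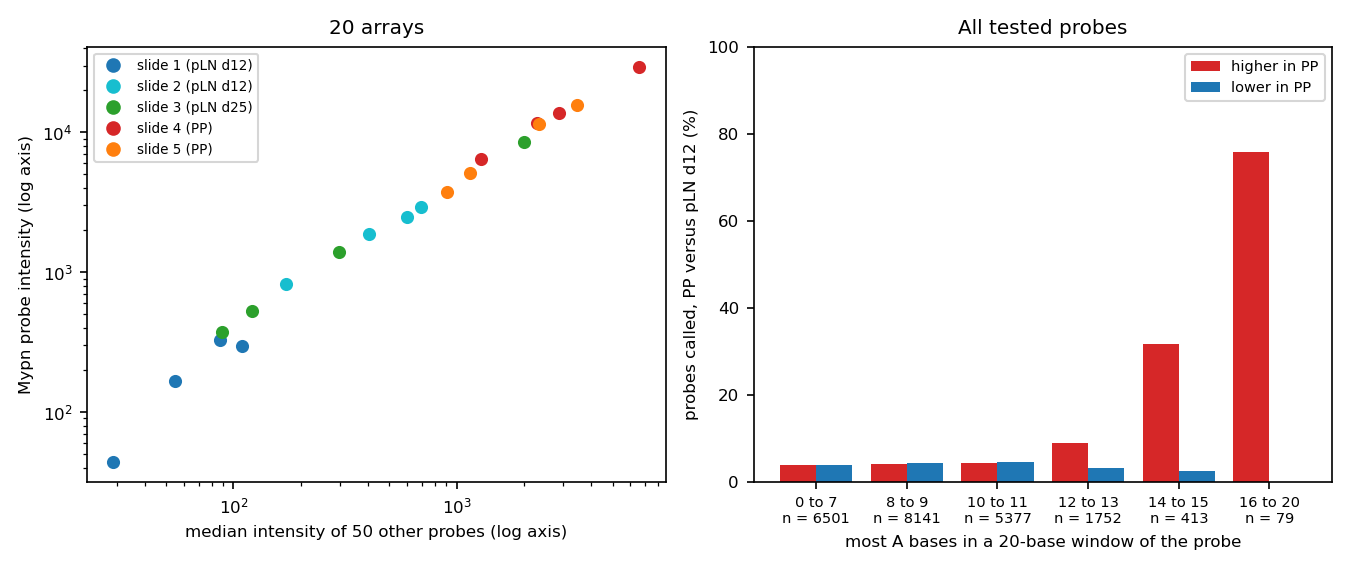
Left, Mypn intensity against the median intensity of the 50 probes that follow it, 1 point per array, both axes logarithmic; right, percent of tested probes called higher or lower in PP than in pLN d12, by the largest number of A in any 20-base window of the probe. The 20 arrays lie along a line, and the share called higher reaches 75.9% in the class richest in A.

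Across comparisons the members were set beside the share of all tested probes that passed the same threshold, an adjusted p under 0.05 (limma, Benjamini-Hochberg over 22264 probes) and an absolute log2 difference of at least 1. Since these contrasts chose the genes, nothing is read from the counts. In pLN d12 TFH against naive, 5 of 6 members passed, where 14.7% of all probes did, and only Mypn did not. In Treg against naive, Actg2, Popdc2 and Pdlim4 passed (3.76% of all probes).

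For TFR against Treg, Smtn and Actg2 passed in both tissues, and Cnn3 passed in pLN d12, with 8.35% of all probes called in pLN d12 and 9.25% in PP. For TFR against TFH, Smtn and Actg2 passed in both tissues, and Popdc2 passed in pLN d12, with 5.01% called in pLN d12 and 3.44% in PP. For TFH GL7+ against Treg in PP, Smtn, Popdc2 and Cnn3 passed (9.87% called). For PP against pLN d12, Popdc2 and Pdlim4 passed in Treg (2.24%) and in TFH (4.54%), Popdc2 in TFR (11.1%), and Actg2, Popdc2, Mypn and Pdlim4 on average over the cell types (9.34%).

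No member passed between the GL7+ and GL7- fractions of PP TFH, where 0.00898% of all probes did. Smtn differed by 0.18 (log2, SE 0.43) between them, Actg2 by -0.02 (SE 0.34) and Popdc2 by -0.02 (SE 0.44). None passed between d25 and d12 of pLN, where 0.00898% (naive), 0.0314% (TFH), 0% (Treg) and 0.00898% (TFR) of all probes did. None passed for the difference between PP and pLN d12 in TFR minus Treg (0.548% called).

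**Figure D3:**
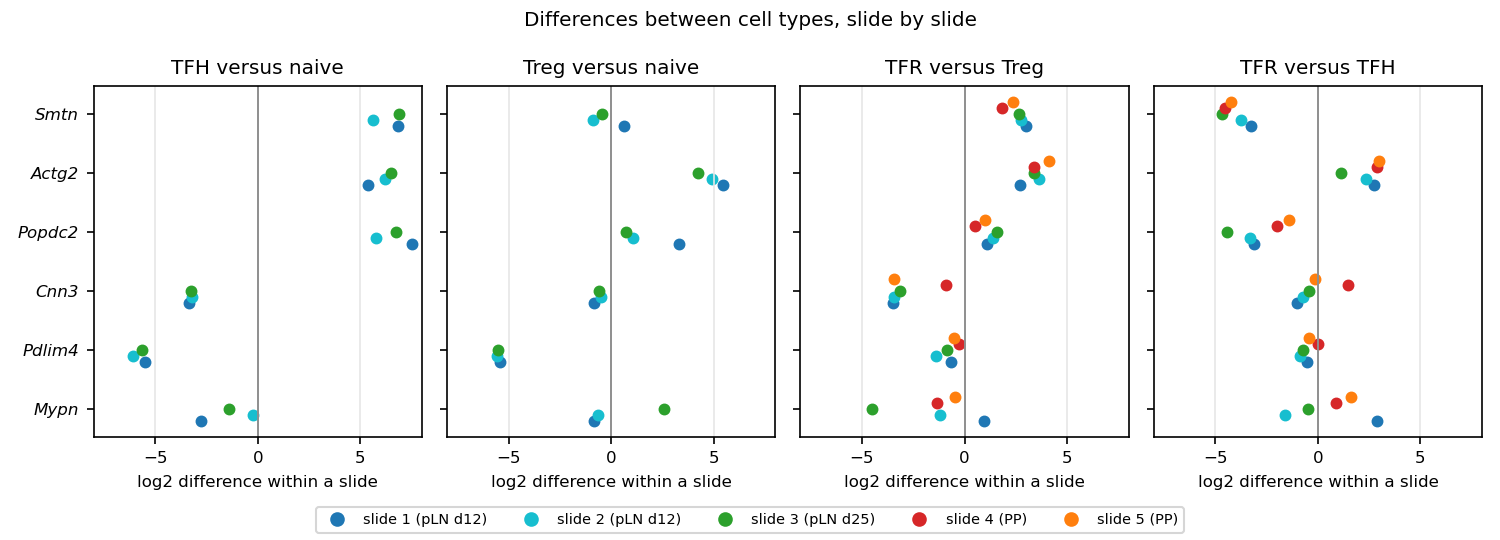
Log2 difference of each gene between cell types of the same slide, for TFH minus naive, Treg minus naive, TFR minus Treg and TFR minus TFH (PP: TFH GL7+), 1 point per slide. The difference of TFR from TFH is -4.67 to -3.25 for Smtn and 1.12 to 2.98 for Actg2 on the 5 slides, while Cnn3 on slide 4 stands apart from the other slides and Mypn changes sign.

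Over the 12 group means of log2 intensity, Smtn and Popdc2 correlated at r = 0.761 and Cnn3 and Pdlim4 at r = 0.695. Actg2 ran against Pdlim4 (r = -0.804) and Cnn3 (r = -0.799), and with Smtn at only 0.406. These are descriptions over groups that share slides, and have no p. By the same measure the genes most like Smtn among 14479 others included Adamts3 (0.977) and Pipox (0.976). Actg2 was most like 2210417A02Rik, B9d1 and Dnph1 (0.975 to 0.981), and Popdc2 was most like Ms4a6c, Ccl3 and Med8 (0.923 to 0.945). For Cnn3 they were Auh, Igfbp4 and Zdhhc14 (0.978 to 0.991), and for Pdlim4 they were Rassf3, Lrrc75b and Elovl7 (0.971 to 0.979).

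Relatives of the members were examined next, whatever their result. Acta2, the alpha actin of vascular smooth muscle, read 794 to 973 in pLN d12 TFH and 82 to 124 in naive cells. PP TFH read 1174 to 2103, and TFR read 148 to 177 in pLN d12 and 228 to 327 in PP. Acta2 thus followed the Smtn order, TFH above TFR, rather than that of Actg2. It was higher in pLN d12 TFH than in naive cells by 3.13 (log2, SE 0.35, limma adjusted p = 0.000142), and lower in TFR than in TFH in pLN d12 (log2 -2.44, adjusted p = 0.00226) and in PP (log2 -2.31, adjusted p = 0.00406).

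The nonmuscle actins Actb (371202 to 494816) and Actg1 (212612 to 398374) were bright on all arrays. The calponin relatives Cnn2 and Tagln, an actin-binding protein of smooth muscle, ran from 68887 to 142887 and from 422 to 1630. Smtnl2, the cardiac actin Actc1, the Popeye genes Bves and Popdc3, and Myot, a relative of myopalladin, were not well above background on any array. The skeletal actin Acta1 was above it on 2 arrays, and Cnn1 and Pdlim3 on 1 each.

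Palld, encoding palladin, the relative of myopalladin in nonmuscle cells, differed between TFR and Treg in both tissues. It read 349 to 470 in pLN d12 TFR and 1170 to 2485 in PP TFR, against 20 to 25 and 80 to 133 in Treg. TFH read 315 to 598 in pLN d12 and 549 to 1473 in PP, and naive cells 24 to 29. Palld thus marked both follicular populations. It was higher in TFR than in Treg in pLN d12 (log2 4.17, adjusted p = 0.0013) by at least 8.49-fold, since Treg was not above background there, and in PP by 4.04 (SE 0.56, adjusted p = 0.0011).

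Among the PDZ-LIM relatives of Pdlim4, Pdlim1, which binds alpha-actinin, had a related order, with 53414 to 57811 in naive cells and 10697 to 12782 in pLN d12 TFH (log2 -2.25, adjusted p = 0.000826). Unlike Pdlim4 it remained high in pLN d12 Treg, at 45572 to 47286. Pdlim7 went the other way, at 3027 to 3718 in TFH against 521 to 699 in naive cells (log2 2.48, adjusted p = 0.000192). Pdlim2 ran from 15462 to 21745 and Ldb3 from 20 to 100. Pdlim5 ran from 420 to 1070 and differed by -0.70 (log2) in TFH against naive (adjusted p = 0.022) and in PP TFR against Treg (adjusted p = 0.0323), less than the log2 difference of 1 that a call needs.

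In 5 lists of cytoskeletal and muscle genes (113 genes, 74 of them tested), 12 genes passed in pLN d12 TFH against naive, 8 higher and 4 lower. That is 16.2% of the tested list, and 16% of all tested genes passed. The lists were drawn up with earlier results of these data known. By list, 1 of 7 smooth muscle genes, 5 of 17 striated muscle genes, 4 of 12 calponin and LIM genes, 2 of 31 nonmuscle actin genes and 0 of 7 muscle regulators passed. The median log2 difference was -0.00819 over the list and -0.0908 over all probes.

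Beside Palld, Acta2 and Pdlim7, the higher genes included Fhl2, a LIM-only protein of heart muscle. Fhl2 read 657 to 755 in TFH and 20 to 42 in naive cells (log2 4.61, adjusted p = 6.99e-05, at least 11.5-fold). Nebl, a nebulin relative (log2 3.44, adjusted p = 0.00175, at least 3.53-fold), and Xirp1, an actin-binding repeat protein of striated muscle (log2 3.03, adjusted p = 0.000104, at least 4.95-fold), were also higher, and none of these 3 genes was above background in naive cells. The lower genes were Actn1 (log2 -3.07, adjusted p = 0.000291) and Actn2 (log2 -2.86, adjusted p = 0.0106), both alpha-actinins, Pdlim1, and Myh7, a slow myosin heavy chain (log2 -1.67, adjusted p = 0.00772). Of 15 alternatives, the call was lost under 4 for Actn2, 5 for Myh7, and 1 each for Actn1 and Pdlim1. Of the higher genes named, Nebl lost it under 2 and Palld under 1.

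In TFR against Treg, 7 of 74 list genes passed in pLN d12 (6 higher, 1 lower; 9.50% of all tested genes passed) and 8 in PP (4 and 4; 10.4%). Palld and Pdlim7 were among the genes higher in both tissues, and Actn1 was lower in both. Without slide 4 the Actn1 difference in PP was -2.64, against -2.50 with all arrays. Slide 4 held no pLN array, so the pLN d12 difference of -1.52 could not change. The Actn1 call was lost under 8 of 15 alternatives in pLN d12 and under 3 of 15 in PP. In both tissues these alternatives were, among others or alone, leaving out slide 4, using only the compared groups, and Tukey's test after adjustment. Fhl2 was higher by 1.96 in pLN d12 (adjusted p = 0.0208), and Pdlim1 was lower in PP (log2 -2.24, adjusted p = 0.00164). This Fhl2 call was lost under 7 of 15 alternatives, and that of Pdlim1 under 2 of 15. The median difference was -0.028 in pLN d12 and 0.0187 in PP over the list, and -0.084 and -0.0548 over all probes.

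In TFR against TFH, 5 list genes passed in pLN d12 (2 higher, 3 lower; 5.70% of all tested genes passed) and 6 in PP against GL7+ TFH (2 and 4; 4.05%). Acta2 and Xirp1 were lower in TFR in both tissues, and Vcl, encoding vinculin, was higher in both. Vcl was dim, above background on 6 of the 8 arrays compared. It read 179 and 187 in pLN d12 TFR against 83 and 70 in TFH, and 157 and 111 against 36 and 43 in PP. Of 15 alternatives, the pLN d12 call was lost under 6 for Vcl, 2 for Acta2 and 1 for Xirp1. The PP call was lost under 4, 3 and 3. Xirp1 read 328 to 360 in pLN d12 TFH and 20 to 35 in TFR, not above background there (log2 -3.70, adjusted p = 0.000133, at least 6.22-fold lower). Without slide 4, which leaves 1 array per PP group, the PP differences were -2.36 for Acta2, -2.39 for Xirp1 and 1.36 for Vcl, and none of the 3 passed. In Treg against naive no list gene passed in limma, and 5 had an unadjusted p under 0.05.

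Between tissues, on average over Treg, TFH and TFR, 12 of 74 list genes passed, 7 higher and 5 lower in PP (10.1% of all tested genes passed). With slide as a random block, at an estimated correlation of 0.742, 3 passed: Palld and, lower, Tnni1 and Pdlim1. The higher genes included Smtnl1, a smoothelin-like gene (log2 3.90, SE 0.82, adjusted p = 0.00598), and Ttn, encoding titin, which was not above background on any pLN d12 array (at least 2.64-fold, adjusted p = 0.0122). Smtnl1 was above background on 2 of the 6 pLN d12 arrays compared. Their probes followed the Mypn probe at r = 0.977 and 0.943 over arrays, with 13 and 14 A in the window. Of the other list probes with at least 13 A, that of Cfl1 (17 A) had r = 0.767. Those of Xirp2 and Mrtfa (14 A each) had 0.703 and 0.581. The probes of Xirp1 (13 A), Coro1a (14 A) and Tnni1 (14 A) had 0.0837, 0.0685 and -0.645. Palld (log2 1.81, adjusted p = 0.00253) and Actn1 (log2 1.60, adjusted p = 0.000653) were also higher in PP. Lower were Tnni1, a slow troponin I (log2 -2.25, adjusted p = 3.58e-05), Vim, encoding vimentin (log2 -1.71, adjusted p = 0.00197), Pdlim1 (log2 -1.43), Fhl2 (log2 -1.17) and Myh7 (log2 -1.14). Of the PP arrays compared, Tnni1 was above background only on the Treg array that read 48, and both TFR arrays lay at the floor of 20. Without slide 4 the differences were 3.64 for Smtnl1, 1.82 for Ttn and -0.84 for Fhl2, and none of the 3 passed with 1 array per PP group. Tissue and slide cannot be told apart in these values.

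For the difference between PP and pLN d12 in TFR minus Treg, no list gene passed in limma, and 11 of 74 had an unadjusted p under 0.05. With slide as a fixed block 9 passed, among them Nebl (log2 -2.78, adjusted p = 0.0293), Vim (-2.01), Lpp (1.72) and Tnni1 (-1.72).

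**Figure D4:**
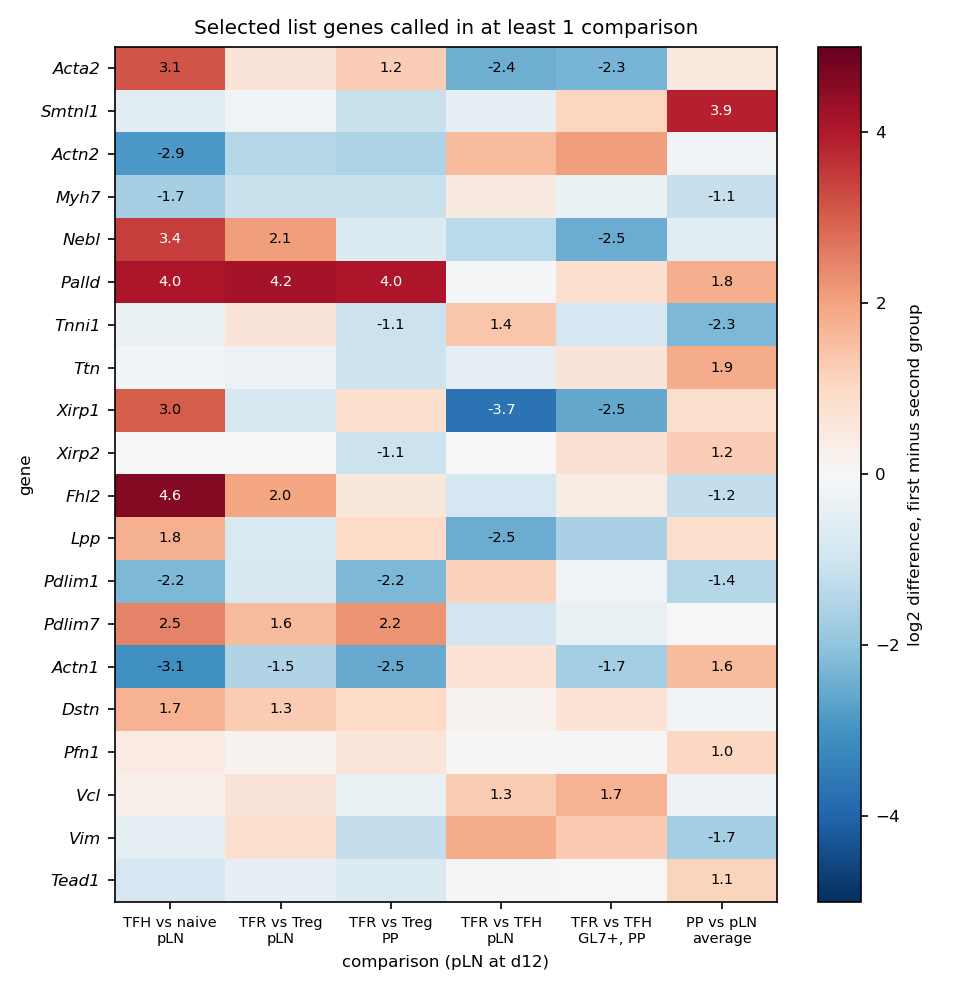
Log2 difference of 20 list genes in 6 comparisons, as colour, with the value written where the gene passed the threshold in limma. Palld is higher in the TFH and TFR columns against naive cells and Treg, Acta2 and Xirp1 are higher in TFH than in TFR, and Smtnl1 and Ttn stand out between tissues.

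Markers of muscle and stromal cells were read on every array. Of 7 skeletal muscle markers, 0 or 1 was well above background on an array. Of 10 smooth muscle markers, 1 to 6 were, with Myh11, Des, Rgs5 and Lmod1 on none of the 20 arrays and Cnn1 on 1. The summed level of that list was 1562 to 2095 in pLN TFH and 2463 to 3747 in PP TFH, against 778 to 1752 elsewhere, and Acta2 and Tagln belong to it. Of 9 fibroblast markers 1 to 5 were above background, and Pdpn, Lum and Pdgfra were on none. Of 5 endothelial markers, Pecam1 (1391 to 4281) and Kdr (1104 to 3217) were above background on all 20 arrays. Vwf, Cdh5 and Tie1 were not above background on any array. Of 7 epithelial markers, 6 to 7 were above background on slide 4, with sums of 3525 to 8234, against 3 to 5 and 743 to 2264 on slide 5 and 0 to 2 and 253 to 2055 in pLN. The sum of 6 myeloid markers was 18509 to 32679 in PP and 9566 to 20834 in pLN. Their part in the differences between PP and pLN was not tested. In bulk samples a lower share of expressing cells and less RNA per cell cannot be told apart.

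Promoter sequences in RefSeq (GRCm38.p6), from 250 bases before to 50 after the start, were at hand for 5 of the 6 members, not Actg2. None of the 5 held a CArG box, the site of serum response factor, which 1.63% of 32851 promoters held, or a MEF2 box (3.19%). The letters GGAATG, searched on both strands, occurred in Mypn, Smtn and Popdc2, and in 14.7% of all promoters. No match says only that these letters are not in this window.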

How the data were processed

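RNA of sorted T cells, amplified and labelled with 1 fluorescent dye, was hybridised to 1-colour Agilent mouse arrays and read with Agilent Feature Extraction 10.7.3.1, per the labels. The authors deposited the scanner output of each array, with the processed signal intensity of every feature, background-subtracted by that software, and its quality marks, and a table of normalised intensity. The study's steps were rebuilt from the scanner intensity: geometric mean over the 4 features of a probe after exclusions, quantile normalisation, 75th percentile to 1500, floor 20. The median absolute log2 difference from the deposited values was 0.0347 to 0.0362 per array.

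A probe counted as above background where at least 3 features were well above it. Log2 intensities of 20 arrays were fitted by group in limma 3.58.1 (R 4.3.3; 8 residual degrees of freedom), with Benjamini-Hochberg adjustment over 22264 probes. A list gene was represented by its tested probe with the highest mean. P-values measure the spread between arrays of pooled samples, and precision is limited by 1 or 2 arrays a group. The members and lists were chosen with earlier results of these data known. Named were all member probes, relatives of members, up to 6 called list genes per direction and comparison with the largest log2 difference, and the 3 genes most like each member, except a few items that are not reported here. Scripts were tested on simulated data. Symbols were updated through RefSeq accessions for 27508 of 39429 probes. Probe coordinates are those of the files (mm9). The series design speaks of more experiments than the arrays used here, and the others were not analysed here. Alternatives were another background correction, no quantile step, another floor, no filter, compared groups alone, slide as a block, Tukey's test, leaving out slide 4 or each replicate, and, chosen after seeing the data, leaving out A-rich probes.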

Additional observations from a re-analysis of the deposited data

Results flagged for a closer look

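Examined were 29 genes, the 6 members and 23 list genes. The list genes had been called in at least 1 comparison or, with slide as a fixed block, for the tissue difference of TFR minus Treg. Tagln2 and Evl entered only by that last route. Of the 29, 11 list genes and no member moved in opposite directions on both PP slides and both pLN d12 slides. The difference was that of TFR from Treg or from TFH. Only its sign was used, and some differences were very small. On slide 4, TFR minus TFH was 0.0017 (log2) for Fhl2 and -0.0414 for Pdlim1. These are the same arrays, the share over all tested probes was not computed, and nothing is read from the count. For TFR minus Treg, PP minus pLN d12 was -2.78 for Nebl, -2.01 for Vim, 1.72 for Lpp, -1.72 for Tnni1, 1.60 for Xirp1, -1.11 for Tagln2, 1.07 for Evl and -0.988 for Vcl on the log2 scale. In limma's test of that difference the adjusted p was 0.243 for Nebl, 0.39 for Vim, 0.606 for Lpp and 0.134 for Tnni1, and with slide as a fixed block it was 0.0293, 0.0213, 0.046 and 0.0413. For TFR minus TFH it was -2.21 for Tnni1, -1.33 for Pdlim1, 1.22 for Fhl2 and -0.783 for Myh7, and these differences were not tested.

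Several of these values rest on levels that were not measured. Of the 8 arrays compared, Nebl was above background on 2 for TFR minus Treg, where pLN d12 Treg was at the floor of 20 and PP TFR read 22 to 27. Xirp1 was above background on 4 of them. Tnni1 was above background on 5 of 8 arrays for TFR minus Treg and on 4 for TFR minus TFH, and in PP neither TFR (20 on both arrays) nor GL7+ TFH (34 and 38) was. With 1 or 2 arrays a group, arrays were not checked as outliers within their group.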

How the results depend on the processing

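Numbers of list genes called are given in the order TFH against naive, TFR against Treg in pLN d12 and in PP, TFR against TFH in pLN d12 and in PP, which were 12, 7, 8, 5 and 6. The average of PP against pLN d12 had 12, and the tissue difference of TFR minus Treg had 0. With only the compared groups the counts were 7, 3, 0, 0 and 0. For those 3 counts of 0 in limma, 14, 17 and 14 genes had an unadjusted p under 0.05. Tukey's test gave 5, 1, 1, 1 and 1 after adjustment, and without it 4 and 5 for TFR against Treg in pLN d12 and PP. It was not run for the average or the tissue difference. With slide as a fixed block, 13 list genes were called for TFR against Treg in PP, 11 and 10 for TFR against TFH in pLN d12 and PP, and 9 for the tissue difference. With slide as a random block (correlation 0.742) the average had 3. No paired analysis was possible by replicate number, because these numbers follow accession order and only name arrays, so arrays were matched by slide alone. Normexp gave 5 for TFR against Treg in PP and 7 for the average, no filter on dim probes gave 4 for TFR against Treg in pLN d12, and without slide 4 the PP counts were 4 (TFR against Treg) and 2 (TFR against TFH). Without probes of at least 14 A in 20 bases, an alternative chosen after seeing the data, the counts were 12, 8, 7, 4 and 6, with 9 for the average. The cause of these moves was not tested.

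Leaving out 1 array at a time gave 9 to 13, 2 to 4, 5 to 6, 2 to 6 and 4 to 6 list genes, 10 to 14 for the average and 0 to 0 for the tissue difference. In pLN d12 TFR against Treg the count was 2 without Treg replicate 2, 3 without TFR replicate 1, and 4 without Treg replicate 1 or TFR replicate 2. TFR against TFH in pLN d12 had 2 without TFR replicate 1 or 2 and 3 without TFH replicate 1, and TFR against Treg in PP had 5 without TFR replicate 1. Acta2, Pdlim7, Fhl2 and Xirp1 in TFH against naive kept their call under all 15 alternatives run for them, Tukey's test after adjustment included. For the average of PP against pLN d12, Palld and Pdlim1 kept their call under all 22 alternatives run, and Tnni1 under all 21. Tukey's test was not among these. Palld in TFR against Treg lost its call in pLN d12 under Tukey's test alone, and in PP also with only the compared groups. Among members, leaving out 1 array gave -0.178 to 2.44 for Cnn3 in TFR, PP against pLN d12 (1.13), and -0.0174 to 2.60 for its tissue difference (1.29). Both low values were those without PP TFR replicate 1, and without slide 4 the first was also -0.178. Mypn in TFH against naive (-1.50) ranged from -4.41 to 1.417, the latter without TFH replicate 1, and was 0.153 without naive replicate 2. Of 995 member values under alternatives, 941 moved by less than the spread between replicates, 49 by more, and 5 with a log2 difference of at least 1 changed sign. Many of the 941 could not move. Compared groups alone, slide as a block and leaving out A-rich probes alter the error but not the difference. Leaving out slide 4 does not alter differences within pLN. The 941 is therefore not a measure of stability.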
